A study of Homo sapiens with 6 samples.

Results

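The epidermal differentiation complex is a run of genes in band 1q21 whose products build the outer skin. The 42 genes analysed here were a list of members taken by symbol: 19 LCE genes, 10 SPRR genes, 7 filaggrin-type genes and 6 others. All 42 were found among the 19974 protein-coding genes of chromosomes 1 to 22 and X in the RefSeq gene table. They span chr1:152084141-153219310 on hg38, or 1135 kb, from TCHHL1 to PRR9. LaminB1, a protein of the nuclear lamina, was mapped by CUT&RUN, in which an antibody-tethered nuclease releases the chromatin it is bound to. The cells were HCT116, a human colorectal carcinoma line. Control cells carried TOP2A fused to a mini auxin-inducible degron (mAID), had TOP2B and, per the file names, received no auxin; their genotype is labelled wildtype. Double loss cells carried the same degron together with a TOP2B knockout (TOP2B -/-) and received 500 uM auxin (indole-3-acetic acid) for 8 h to degrade TOP2A. All cells were held in G1 by 28 h of 2 uM palbociclib. LaminB1 libraries numbered 2 per group, beside 1 IgG library. Whether the knockout line is 1 clone, or the replicates are separate cultures, is not in the labels; p-values therefore measure only the spread between these libraries, which may be technical. The gene bodies of TOP2A, TOP2B and LMNB1 were at 0% in all 4 lists. LaminB1 regions do not measure the amount of TOP2A or TOP2B, so the lists hold no check of the loss.

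Late in keratinocyte differentiation, involucrin and the SPRR and LCE proteins are cross-linked by transglutaminases into the cornified envelope, the insoluble shell of the dead surface cell. Filaggrin and its relatives combine a calcium-binding S100 domain with long repeats and bundle keratin or fill the cornified cell. Sequence near the nuclear lamina is mostly inactive, and tissue-specific gene clusters often lie there in cells that do not use them. Neither group here was a keratinocyte, and expression was not measured in these libraries.

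The quantity used throughout is the covered share, the percentage of a gene body, step or block that lies inside the LaminB1 regions deposited for a library. The lists held 10771 and 13599 regions in control 1 and 2, and 12410 and 12242 in double loss 1 and 2. Regions contained 7263458 to 8351031 LaminB1 reads per list, while the depth of whole libraries is unknown because reads outside regions are not in the lists. The lists also give a second read count per region under the header InputCount, called input reads here; which library it was counted from is not stated.

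The complex was a patchwork of short LaminB1 regions standing alone on its part of the chromosome. It held 11 regions in each control list, 7 in double loss 1 and 10 in double loss 2. The last region before TCHHL1 lay 8.40 to 8.50 Mb away in the 4 lists. After PRR9, the next region lay 3.98 Mb away in control 1, double loss 1 and double loss 2. Control 2 had 1 further region there, over PGLYRP3, starting at 153296001, and its next one started at 157218001. Stretches of the same length directly before and after the complex were at 0% in every list except the one after it in control 2, at 1.59%. Apart from that region of control 2, the complex held all regions called within 13.5 to 13.6 Mb. Its covered share was 24.2% and 16.4% in the control libraries and 15.2% and 26.4% in the double loss libraries. Chromosome 1 as a whole was at 19.3% to 21.4%.

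**Figure D1:**
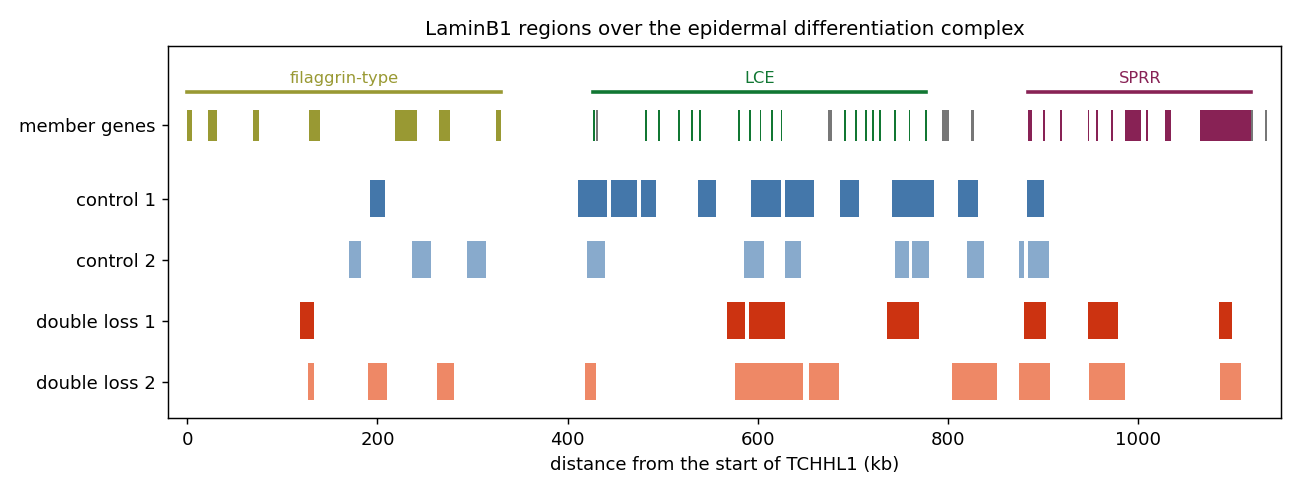
LaminB1 regions over the epidermal differentiation complex, as horizontal bars for each of the 4 libraries, by distance in kb from the start of TCHHL1. Member genes and the 3 blocks are drawn above, with genes under 2 kb widened to 2 kb. The first 118.9 kb are empty in all 4 lists, and only the double loss lists have regions that start beyond SPRR1A.

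Which parts were called varied between libraries. Of the 1135 kb, 607 kb lay in no list and 528 kb in at least 1, but all 4 lists shared only 31 kb, in 2 stretches. One of these, of 14 kb, lay over LCE2B at chr1:152677001-152691000. The other, of 17 kb, lay over SPRR4 and the start of SPRR1A at chr1:152968001-152985000. Sequence in both double loss lists and no control list summed to 66 kb, and sequence in both control lists and no double loss list to 20 kb. The base-pair Jaccard index, shared over combined sequence, was 0.313 for the control pair and 0.344 for the double loss pair. The 4 pairs across groups had 0.189 to 0.269.

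Promoter sequence is shown for the 6 members whose promoter lay wholly in all 4 lists, or wholly in both lists of 1 group and in neither list of the other. The windows run from 250 bases before to 50 after the RefSeq start, on GRCh38.p14, whose chromosome 1 coordinates are those of hg38. Of the 42 members, 38 had an entry; CRCT1, SPRR2D, SPRR2E and LCE1B did not. Each line reads 5′ to 3′ on the gene's strand. Capitals mark TGANTCA, the AP-1 motif, and a TATA box motif, TATAAA, on either strand; no match of one overlapped a match of the other.
In all 4 lists, LCE2B promoter, chr1:152685873-152686172, strand +: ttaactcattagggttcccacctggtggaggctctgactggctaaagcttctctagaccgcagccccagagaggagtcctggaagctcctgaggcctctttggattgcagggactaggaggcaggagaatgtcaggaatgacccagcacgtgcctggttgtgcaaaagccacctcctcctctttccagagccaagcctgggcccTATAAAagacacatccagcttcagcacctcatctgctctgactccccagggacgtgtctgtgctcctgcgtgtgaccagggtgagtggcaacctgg
In all 4 lists, SPRR4 promoter, chr1:152970398-152970697, strand +: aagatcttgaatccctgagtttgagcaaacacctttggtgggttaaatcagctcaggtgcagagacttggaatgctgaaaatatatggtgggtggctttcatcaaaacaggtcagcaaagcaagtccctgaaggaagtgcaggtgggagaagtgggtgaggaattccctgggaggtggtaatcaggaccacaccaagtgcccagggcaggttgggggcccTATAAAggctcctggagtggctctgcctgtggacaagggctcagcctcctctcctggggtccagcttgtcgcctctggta
In all 4 lists, SPRR1A promoter, chr1:152983831-152984130, strand +: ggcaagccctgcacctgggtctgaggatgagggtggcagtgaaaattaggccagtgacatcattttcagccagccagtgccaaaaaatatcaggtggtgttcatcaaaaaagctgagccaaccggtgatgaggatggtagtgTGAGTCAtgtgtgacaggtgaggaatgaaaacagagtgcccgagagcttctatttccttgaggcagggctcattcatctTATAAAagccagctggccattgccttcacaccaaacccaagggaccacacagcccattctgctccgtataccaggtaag
In both double loss lists only, LCE2D promoter, chr1:152663130-152663429, strand +: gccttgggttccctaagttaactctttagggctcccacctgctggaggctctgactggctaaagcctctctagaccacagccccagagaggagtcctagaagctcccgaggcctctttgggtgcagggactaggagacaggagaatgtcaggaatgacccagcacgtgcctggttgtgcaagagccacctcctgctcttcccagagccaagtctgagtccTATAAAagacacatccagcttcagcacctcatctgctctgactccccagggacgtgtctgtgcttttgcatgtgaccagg
In both double loss lists only, SPRR2A promoter, chr1:153057463-153057762, strand -: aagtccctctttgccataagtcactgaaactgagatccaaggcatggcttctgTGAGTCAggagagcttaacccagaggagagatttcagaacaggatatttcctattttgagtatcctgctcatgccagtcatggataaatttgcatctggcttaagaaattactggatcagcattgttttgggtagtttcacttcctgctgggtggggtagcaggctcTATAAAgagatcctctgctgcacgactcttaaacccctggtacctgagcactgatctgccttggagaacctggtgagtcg
In both control lists only, LCE7A promoter, chr1:152859746-152860045, strand +: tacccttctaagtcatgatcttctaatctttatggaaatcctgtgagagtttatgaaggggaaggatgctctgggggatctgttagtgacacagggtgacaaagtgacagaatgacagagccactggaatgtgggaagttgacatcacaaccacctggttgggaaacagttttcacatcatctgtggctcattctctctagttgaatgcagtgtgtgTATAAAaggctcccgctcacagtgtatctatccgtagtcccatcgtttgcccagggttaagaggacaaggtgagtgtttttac

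All 6 windows held TATAAA, and SPRR1A and SPRR2A also held TGANTCA. Among 15812 protein-coding promoters of that length, 9.64% held TATAAA and 5.76% held TGANTCA. Of the 38 member promoters, 24 held TATAAA and 15 held TGANTCA. By family, the AP-1 motif was in 6 of 8 SPRR and 6 of 7 filaggrin-type promoters and in 0 of 18 LCE promoters. The LCE2B and LCE2D windows were 83.6% identical in a global alignment, at 265 of 317 columns. Gap columns are counted in this, so the identity of the aligned bases alone is higher. The other pairs shown were at 50% to 54.1%. LCE2B was covered in every list, and LCE2D in the double loss lists alone. Reads of 75 bp from such close copies can be hard to place, and how the alignment treated them is not given in the sources used here. SPRR2A was the only SPRR2 gene among the 6 windows. The likeness of SPRR2 genes to one another, and how well reads could be placed over them, was therefore not tested.

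Across the 42 gene bodies, the mean covered share was 33.8% and 19.8% in the control libraries and 29.0% and 33.0% in the double loss libraries. The groups overlapped. Most members were short, with a median length of 1694 bp, and 34 of 42 were either wholly inside or wholly outside a region in every list. Covered sequence was found in 15, 10, 14 and 16 members in control 1, control 2, double loss 1 and double loss 2. In all lists together 26 members had some and were tested, while 16 had none and were not. At least 50% was reached in all 4 lists by LCE2B, SPRR4 and SPRR1A, in 1 to 3 lists by 19 members, and in none by 20. Over all 19974 genes, 6.51% to 7.47% reached 50% in a given list. Of the 26 touched members, 24 had values that differed between libraries.

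In all 6 of the 26 tested members passed the test (limma, adjusted p under 0.05 over 3058 genes), where 2.65% of all tested genes did. Of these, 4 rose in the double loss group, where 1.67% of all tested genes were called higher. They were SPRR2D, SPRR2A, LCE2D and HRNR. Another 2 fell, CRCT1 and LCE7A, where 0.981% of all tested genes were called lower. Both double loss values lay above both controls for 6 members, against 21.5% of tested genes, and below both for 2, against 13.9%. The 6 of 26 members above both controls are a share near that background. The median difference of the 26 tested members was 1.10 points, and that of all tested genes 0.77 points. All 6 called members had no spread within either group, as had 57 of the 81 genes called over the genome. Calls were made at another rate among short genes: of 361 tested genes under 5 kb, 4.16% were called higher and 4.71% lower, and 21 of the 26 tested members were under 5 kb. Neighbouring genes can share a region, so the members are not independent counts. With 10 kb added on each side of each gene, limma called 0 of 32 members and 0 of all 3382 genes, and 7 members and 543 genes had an unadjusted p under 0.05.

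**Figure D2:**
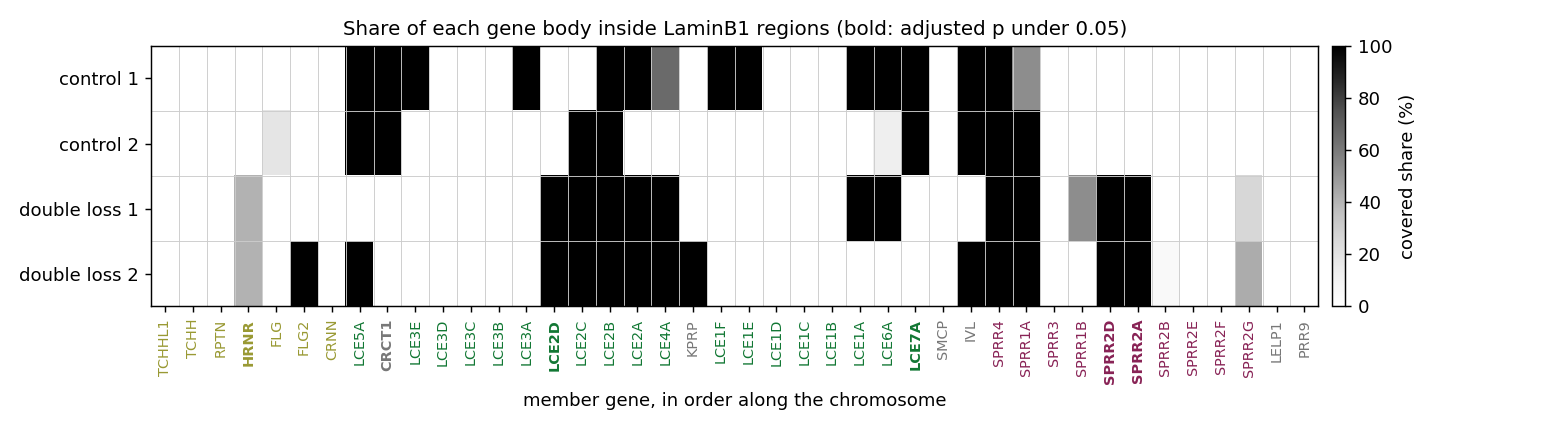
Covered share of each member gene body (grey scale, 0 to 100%) in the 4 libraries (1 line each), with genes in chromosome order. Names are coloured by block as in the map, and bold names are the 6 members with an adjusted p under 0.05: HRNR, CRCT1, LCE2D, LCE7A, SPRR2D and SPRR2A.

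The SPRR genes encode small proline-rich proteins that act as cross-bridges in the cornified envelope. Their block, chr1:152968750-153203278, was covered at 6.93% and 9.49% in the control libraries and at 27.0% and 35.9% in the double loss libraries. Both double loss values lay above both controls, a difference of 23.2 points between 31.4% ± 6.33 and 8.21% ± 1.81 (SD, n = 2 each). The exact permutation p was 0.333 (two-sided; Benjamini-Hochberg 1 over the span and 3 blocks). With 2 libraries against 2 no smaller exact p can be reached, here or below, so no such comparison could pass. With each list cut to its upper 50% by log2 fold, the block was at 0% in all 4 lists and the difference was 0.

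Of this block, 30 kb at chr1:153033001-153063000, over SPRR2D and SPRR2A, lay in both double loss lists and in no control list, and so did 13 kb within SPRR2G. SPRR2D, at 153039732 to 153041120, was at 0% in both controls and at 100% in both double loss libraries. SPRR2A, at 153056120 to 153057512, had the same 4 values. The adjusted p was 0.0142 for each (limma, Benjamini-Hochberg). The genes lie in 1 region per double loss list, at chr1:153032001-153063000 in double loss 1 and chr1:153033001-153071000 in double loss 2. In the controls the nearest region lay 54.7 and 48.7 kb from SPRR2D and 71.1 and 65.1 kb from SPRR2A. Without any 1 library the difference of each gene stayed at 100 points, as values of 0% and 100% without spread must give. Both calls held with only regions at a deposited adjusted p under 0.001. They also held with an equal number of regions per list, the 10771 of highest log2 fold, which left control 1 whole. They were lost when lists were cut to their upper 50% by log2 fold, where limma called 68 of 2009 genes, and with 10 kb added on each side (limma adjusted p = 0.0867 for SPRR2D and 0.131 for SPRR2A).

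SPRR2G, whose model in the table runs 53697 bp from 153149582, was at 0% in both controls, at 26.1% in double loss 1 and at 42.8% in double loss 2. It did not pass (limma adjusted p = 0.115). Its region started at 153169001 in double loss 1 and at 153170001 in double loss 2, and its RefSeq promoter window lay outside. SPRR1B was touched at its end by the same region as SPRR2D in double loss 1, at 53.0%, and was at 0% in the other 3 lists, with the region of double loss 2 starting 0.1 kb away. SPRR2B was at 4.41% in double loss 2 and at 0% elsewhere. Neither SPRR1B nor SPRR2B passed the test.

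The proximal end of the block was covered in both groups. SPRR4 was at 100% in every list. SPRR1A was at 53.1% in control 1, where its region stopped at 152985000, and at 100% in the other 3. SPRR3, which lies between, was at 0% in all lists with regions 9.75 to 16.7 kb away, as were SPRR2E and SPRR2F, whose nearest regions were 22.1 to 127 kb away.

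The LCE genes encode late cornified envelope proteins, added to the envelope at the last stage of differentiation. The LCE block, chr1:152510803-152861252, was the most covered of the 3 blocks in both controls, at 55.8% and 22.7%. In double loss 1 and 2 it was at 26.0% and 30.6%, under the SPRR block in each. Group means were 39.2% ± 23.4 for control and 28.3% ± 3.27 for double loss (SD, n = 2 each; exact permutation p = 1, two-sided). Both double loss values lay between the controls. Leaving out control 1 turned the difference to 5.61 points, with double loss higher.

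Within the family, the LCE2 genes were at 100% in 2 to 4 lists, the LCE3 genes in 0 or 1 and the LCE1 genes in 0 to 2. LCE2B was at 100% in every list. LCE2D, at 152663380 to 152664659, was at 0% in both controls and 100% in both double loss libraries (limma adjusted p = 0.0142). In the controls the nearest region started 12.3 and 5.34 kb past the gene. In double loss 1 it lay in a region of its own, and in double loss 2 in a 72 kb region that also held LCE2C, LCE2B, LCE2A and LCE4A. Its region in double loss 1 had 241 LaminB1 and 203 input reads, a deposited adjusted p of 0.0267 and a log2 fold at percentile 1.76 of that list. The call was lost with regions at a deposited adjusted p under 0.001 and with an equal number of regions. LCE2C was at 0% in control 1 and 100% in the other 3, with the control 1 region starting 0.431 kb past the gene. LCE2A was at 0% in control 2 and 100% in the other 3. LCE4A, next in line, was at 66.0% and 0% in the controls and 100% in both double loss libraries (limma adjusted p = 0.425).

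LCE7A fell. This gene, at 152859996 to 152861252, was at 100% in both controls and 0% in both double loss libraries (limma adjusted p = 0.0142). In the controls it lay in the regions chr1:152825001-152870000 and chr1:152847001-152864000. The region of double loss 1 ended 5995 bp short of it, and the nearest region of double loss 2 was 27.7 kb away. The call was kept with regions at a deposited adjusted p under 0.001 and with an equal number of regions, and was lost with the upper 50% by log2 fold. With an equal number of regions, LCE2B and IVL were called lower too (limma). That setting drops regions of low log2 fold from each list except that of control 1. The double loss regions over LCE2B, at percentiles 10.4 and 2.37 of their lists, were among those dropped. So was the region over IVL in double loss 2, at percentile 4.86.

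The remaining LCE genes differed within a group and overlapped between groups. LCE3E, LCE3A, LCE1F and LCE1E were at 100% in control 1 and at 0% in the other 3 lists. LCE5A was at 0% in double loss 1 and 100% in the other 3. LCE1A was at 100% in control 1 and double loss 1 and 0% in their partners. LCE6A was at 100% and 12.9% in the controls and at 100% and 0% in the double loss libraries. The LCE3D, LCE3C and LCE3B genes, and LCE1D, LCE1C and LCE1B, formed 2 runs of genes that no list touched.

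The filaggrin-type genes had little LaminB1 coverage. Their block, chr1:152084141-152414263, was at 4.85% and 15.8% in the control libraries and 4.24% and 13.3% in the double loss libraries. The groups overlapped (exact permutation p = 0.667, two-sided). TCHHL1, TCHH, the gene of trichohyalin of hair follicle sheaths, RPTN and CRNN were at 0% in all 4 lists. TCHHL1 lay 114 to 187 kb from the nearest region, the distance falling along the block to 43.8 to 117 kb at RPTN.

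HRNR, the gene of hornerin, at 152212076 to 152224193, was at 0% in both controls and 40.6% in both double loss libraries (limma adjusted p = 0.0286). The regions over it both ended at 152217000 and started at 152203001 in double loss 1 and 152211001 in double loss 2. They held 193 LaminB1 against 148 input reads and 100 against 80. Input reads stood at 10.6 and 13.3 per kb there, against 8.93 and 8.63 per kb over all regions of the complex in those lists. The part of these reads in the call was not tested. With regions at a deposited adjusted p under 0.001, or with an equal number of regions, the call was lost. FLG, the gene of filaggrin itself, was at 18.4% in control 2 and 0% in the other 3, and FLG2 was at 100% in double loss 2 and 0% in the other 3. HRNR, FLG and FLG2 consist largely of internal repeats; how well reads could be placed within them was not tested.

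Of the other 6 members, CRCT1 fell. CRCT1, at 152514482 to 152516008, was at 100% in both controls and 0% in both double loss libraries (limma adjusted p = 0.0142). The double loss lists differed in how far it was from a region: 136 kb in double loss 1, but 0.481 kb in double loss 2, whose region ended at 152514000. Without either of these libraries the difference stayed at -100 points, as values of 100% and 0% without spread must give. The call was lost with regions at a deposited adjusted p under 0.001 and with an equal number of regions. It was also lost with 10 kb added on each side (limma adjusted p = 0.329) and with the upper 50% by log2 fold. IVL, the gene of involucrin, the scaffold of the early envelope, was at 100% in both controls and double loss 2 and at 0% in double loss 1. KPRP was at 100% in double loss 2 and 0% elsewhere. SMCP, a sperm mitochondrial protein gene, LELP1 and PRR9 were at 0% in all lists.

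**Figure D3:**
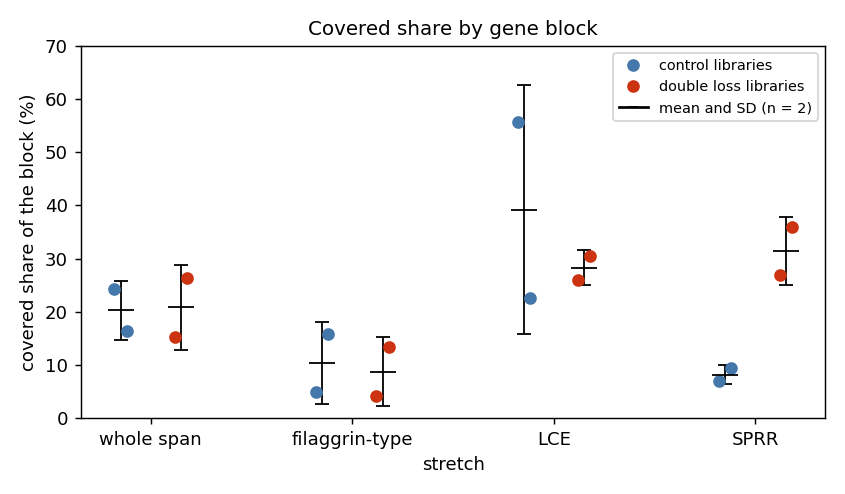
Covered share (%) of the whole span and the 3 blocks in each library (points), with group means and SD (n = 2). The SPRR block is the only one of these 4 stretches in which the double loss libraries (27.0% and 35.9%) lie above both controls (6.93% and 9.49%).

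The change in the SPRR block was set against that in the other blocks. The SPRR share minus the LCE share was -48.8 and -13.2 points in the controls and 1.00 and 5.33 points in the double loss libraries. SPRR minus filaggrin-type was 2.08 and -6.26 points against 22.7 and 22.6 points. The groups did not overlap in either, and both had the smallest exact permutation p of 0.333 (two-sided; Benjamini-Hochberg 0.5 over 3 block pairs). LCE minus filaggrin-type overlapped between groups, at 50.9 and 6.92 against 21.7 and 17.3 points.

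In 10 kb steps, 66 of the 114 steps of the complex had covered sequence and were tested within a fit of 95092 steps. In this fit 6 steps passed (limma, adjusted p under 0.05), where 4.6% of all steps did. All 6 rose, where 2.77% of all steps were called higher. None fell, where 1.84% were called lower, and 3 lower steps had an unadjusted p under 0.05 (limma). In either direction 9 of the 66 tested steps had one, against 10885 of 95092 over the genome. Both double loss values lay above both controls in 9 of the 66 tested steps, against a background of 10.8%, and below both in 4, against 7.55%. Both are shares near the background. The SPRR block held 4 of the 6 called steps, and the LCE and filaggrin-type blocks 1 each. Steps from 152660001, 153040001, 153050001 and 153170001 were at 0% in the controls and 100% in double loss 1 and 2 (limma adjusted p = 0.00871 each). The step from 153030001 went from 0% to 80% and 70% (adjusted p = 0.0215), and that from 152210001, over HRNR, to 70% and 60% (adjusted p = 0.0291). They belong to 4 stretches, since the 3 from 153030001 adjoin.

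The 4 steps below both controls, a share near the background, all touched the LCE block, and none of them passed. The steps from 152510001, over LCE5A and CRCT1, and from 152850001, over LCE7A, were at 100% in both controls. They were at 0% and 40%, and at 40% and 0%, in the double loss libraries (limma adjusted p = 0.376 each). Steps from 152520001 and 152860001 were at 60% and 40%, and at 100% and 40%, in the controls and at 0% in both double loss libraries (adjusted p = 0.123 and 0.517). At 50 kb steps no step of the complex was called (limma). An unadjusted p under 0.05 was reached by 4 of 18, against 3409 of 22391 over the genome. With lists cut to their upper 50% none was called either. There 0 of 19 had an unadjusted p under 0.05, against 8236 of 61524 over the genome (limma).

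**Figure D4:**
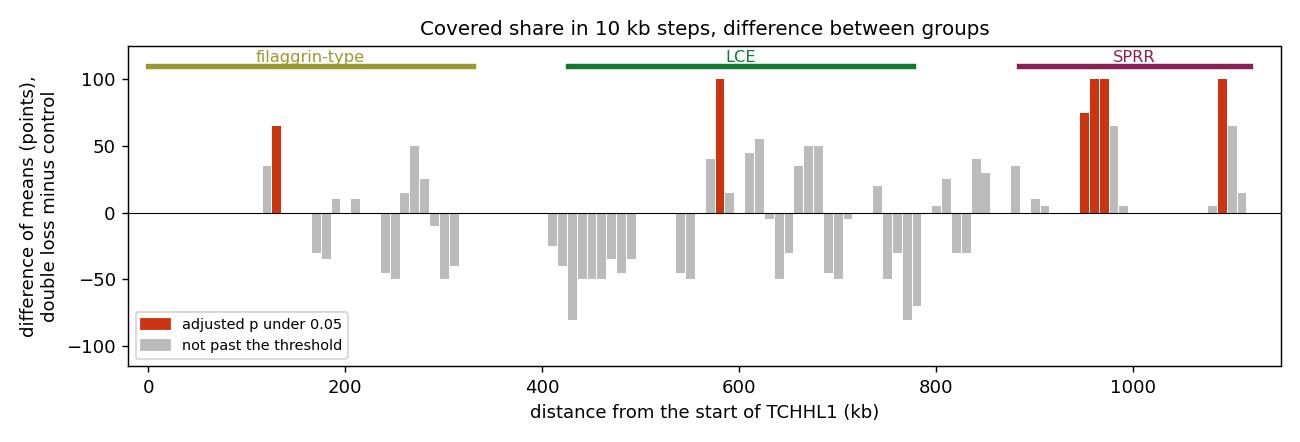
Difference of mean covered share (percentage points, double loss minus control) in each 10 kb step, by distance in kb from the start of TCHHL1. The 6 steps past an adjusted p of 0.05 (limma) are red and all point upward; 4 of them lie in the SPRR block.

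The regions of the complex ranked low by log2 fold within their lists. This log2 fold, the authors' value for LaminB1 over input reads, had medians of 0.38 and 0.47 over the complex in control 1 and 2, against list medians of 0.55 and 0.60. In double loss 1 and 2 the medians were 0.32 and 0.37, against 0.51 and 0.50. The fold equals the log2 ratio of the 2 counts less a constant per list. That constant was 0.27 and 0.32 in control 1 and 2, and 0.065 and 0.078 in double loss 1 and 2. Folds were therefore read only within a list. Of the 39 regions, 31 lay under their own list's median and 20 in its lowest 25%. The strongest by rank was the 11 kb region over LCE5A in double loss 2, at percentile 93.7. Regions over SPRR2D and SPRR2A lay at percentiles 29.9 and 47.0, those over SPRR4 and SPRR1A at 11.1, 25.6, 21.2 and 27.1 in list order. LaminB1 read density over the complex was 10.7 and 11.4 reads per kb for control and 11.7 and 11.6 for double loss. Input read density was 6.63 and 6.41 against 8.93 and 8.63 reads per kb, and differed likewise over all regions of chromosome 1, at 6.44 and 6.44 against 8.35 and 8.37. The input reads thus differed with the group, and their effect on the calls and that of genotype and auxin cannot be told apart.

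**Figure D5:**
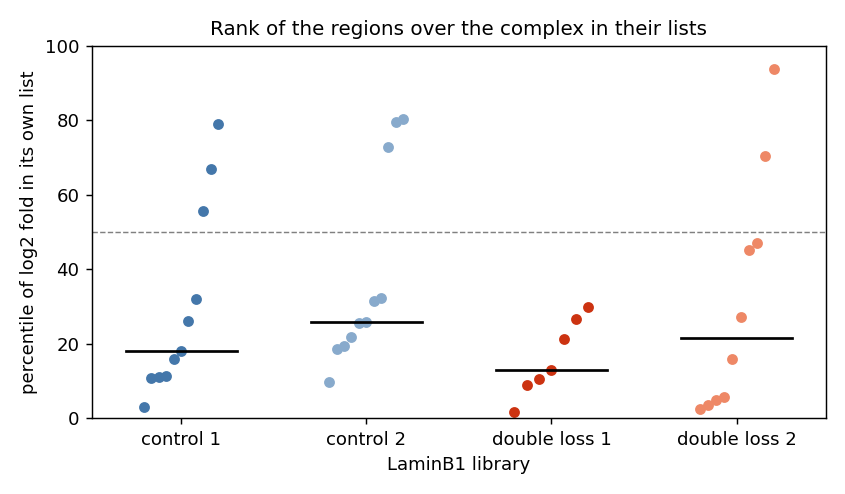
Percentile of each region over the complex by the authors' log2 fold within its own list (points), with the median per library (black line) and the list's middle (dashed, 50). Medians lie at 18.1 and 25.9 for control and at 12.8 and 21.5 for double loss.

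Genes and the sequence between them were both covered. In the span, 44 protein-coding genes, the 42 members among them, took up 208 kb. Gene bodies were covered at 11.3% and 10.1% in the controls, below the 27.1% and 17.8% of the sequence between genes. In the double loss libraries gene bodies were at 17.4% and 30.9%, above the 14.8% and 25.4% between genes. The gene-body shares of the groups did not overlap, and those between genes did. SPRR2G alone makes up 53697 bp of these gene bodies, at 0% in both controls and 26.1% and 42.8% in double loss 1 and 2. The non-overlap of the gene-body shares, and the order in double loss 1, both depend on this gene model.

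Beyond the members, the S100 genes that flank the complex, encoding small calcium-binding proteins, were at 0% in every list, all 16 of them. S100A11, the nearest gene before TCHHL1, and LORICRIN, the gene of the main envelope protein and the first after PRR9, were at 0% as well. Of the 19 other genes listed for the region and found in the gene table, S100 genes included, only PGLYRP3, a peptidoglycan recognition protein gene, was covered, at 100% in control 2 and 0% in the other 3 lists. Of 30 genes of epidermal differentiation elsewhere in the genome, 5 had covered sequence, and 0 were called by limma, with 2 at an unadjusted p under 0.05. Among all 3058 tested genes, 476 had an unadjusted p under 0.05 (limma). CERS3, a ceramide synthase gene of the skin barrier at 100400395 to 100544683 on chromosome 15, was at 15.2% and 11.8% against 57.3% and 78.7% (limma adjusted p = 0.188). TP63, the gene of the p63 regulator of epidermal fate at 189596746 to 189897276 on chromosome 3, was at 86.9% and 84.0% against 98.7% and 100% (adjusted p = 0.144). SCEL, the gene of sciellin at 77535706 to 77645263 on chromosome 13, was at 100% and 90.9% against 79.0% and 91.8% (adjusted p = 0.589).

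The mean covered share of members changed by 4.25 points between groups. For the 49 keratin-associated protein genes on chromosome 21, another cluster of skin and hair genes, the mean was 0% in both controls and 8.16% and 18.4% in the double loss libraries. For the 53 clustered protocadherin genes on chromosome 5 it was 22.4% and 30.8% against 47.6% and 51.8%. The change of the members differed from that of the protocadherins by -18.8 points, with groups that did not overlap (exact permutation p = 0.333, two-sided). It differed from that of the keratin-associated genes by -9.01 points (exact permutation p = 0.667).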

How the data were processed

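Region lists of the 4 LaminB1 libraries were used, and the IgG libraries have no list of their own here. The submitters' processing notes name Bowtie2 2.3.4.3, Picard and hg38; which program called regions is not given in the sources used here. Per the file headers, the authors deposited, for each region on a 1 kb grid, 2 read counts (ChIPCount and InputCount), a p-value with its adjusted value, and a log2 fold. ChIPCount was taken as LaminB1 reads; the library behind InputCount is not given in the sources used here. The deposited score equals 100 times the log2 fold, so it was not used. Files were matched to samples by genotype and replicate number. Covered shares were computed with Python 3.11.15, numpy 2.4.6 and pandas 2.3.3, with genes from RefSeq GRCh38.p14. Arcsine square root shares of all genes and 10 kb steps of chromosomes 1 to 22 and X, covered in at least 1 list, were compared with limma 3.58.1 under R 4.3.3 with trended variance (p adjusted by Benjamini-Hochberg, called under 0.05). Spans and blocks were compared by exact permutation, two-sided. The interval arithmetic was tested on made intervals and the fit on simulated shares. The simulation used changes of set sizes and spreads shuffled between genes. It thus did not copy the values without spread on which the member calls rest. Blocks run from the first to the last member of a family; SPRR5, in front of SPRR4, is no member. Members, lists and tests were chosen with earlier results of these data known. All members are accounted for; of genes elsewhere the 3 with the largest differences are named, and steps by the 5 largest gaps per direction. Restricting the background to genes under 5 kb, the motifs and the promoter selection were chosen after values were seen.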

Additional observations from a re-analysis of the deposited data

How the results depend on the processing

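Regions over the complex held 80 to 820 LaminB1 reads each; what this depth limits was not tested. The SPRR block stayed higher in the double loss group in all alternatives run, except with lists cut to their upper 50% by log2 fold, which left it at 0; leaving out 1 library gave 18.8 to 27.7 points. The whole span, at 0.529 points, turned to -3.17 with that upper 50% and to -7.84 with an equal number of regions per list (10771, that of control 1), and ranged from -5.07 to 6.12 without 1 library. The filaggrin-type block, at -1.51 points, turned to 0.606 with the upper 50%, and ranged from -6.97 to 3.94 without 1 library. The LCE block, at -10.9 points, ranged from -27.5 to 5.61, turning only without control 1; the filaggrin-type block turned without control 2 or double loss 1, and the span without control 2 or double loss 2. Where 1 library of a group is left out, the lone one is assumed to vary like the other group's.

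Member calls, 4 higher and 2 lower, numbered 0 and 0 with 10 kb added to each gene, with the replicate block and with the upper 50%. They numbered 2 and 1 of 23 at a deposited adjusted p under 0.001, where 96 of all 2898 genes were called. With an equal number of regions they numbered 2 and 3 of 22, where 47 of all 2837 genes were called. LCE2B and IVL were called lower there. Unadjusted p under 0.05 (limma) was reached by 7 of 32 members with 10 kb added, 7 of 26 with the block and 0 of 4 with the upper 50%. Genome-wide it was reached by 543 of 3382, 328 of 3058 and 357 of 2009 genes. Over all genes limma called 0 of 3382 and 0 of 3058 in the former 2 settings, but 68 of 2009 with the upper 50%. Without 1 library they were 6 to 8 higher (7 without control 2, 8 without double loss 1) and 2 to 6 lower (6 without control 2, 4 without double loss 2), while calls over all genes went from 81 to between 334 and 502. Step calls, 6 higher and 0 lower, numbered 0 and 0 with the replicate block, the upper 50% and 50 kb steps. They numbered 9 and 2 of 120 with 5 kb steps, 4 and 5 of 52 with an equal number, and 4 and 0 of 57 at the stricter adjusted p. Genome-wide, limma called 12508 of 183040 steps with 5 kb steps, 3481 of 89862 with an equal number and 4676 of 91364 at the stricter adjusted p. At 50 kb, with the block and with the upper 50%, 4, 7 and 0 steps had an unadjusted p under 0.05 (limma). The counts over the genome were 3409 of 22391, 8029 of 95092 and 8236 of 61524. Over all steps, limma called 442 of 22391, 0 of 95092 and 4762 of 61524 in these settings. Without 1 library they were 5 to 18 higher (18 and 11 without double loss 1 and 2) and 3 to 13 lower (9 and 13 without control 1 and 2, 3 and 4 without double loss 1 and 2), while calls over all steps went from 4378 to between 16850 and 20010. The cause of these moves was not tested.

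Untransformed shares and merging across gaps of at most 10 kb gave 4 and 2 member calls and 6 and 0 step calls, as before. Single genes turned as follows: LCE5A to 50 points with the upper 50%, CERS3 to -1.87 with it, and LCE2C and LCE2A to -50 each and LCE4A to -33.0 with an equal number. LCE6A, at -6.43 points, ranged from -56.4 to 43.6 without 1 library. The labels number replicates in both groups, without saying what a number shares. Deviations of same-numbered libraries had a correlation of -0.02 across genes and -0.0016 across steps, so the numbers show no pairing. As each number occurs in both groups, the replicate block cannot change a difference of means. Those of the span and blocks stayed at 0.529, -1.51, -10.9 and 23.2 points for that reason alone. A fit over all features, covered or not, could not be fitted with trended variance.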
